A study of Homo sapiens with 5 samples.

Results

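The proteasome genes examined here are the protein-coding genes whose symbol begins with PSMA, PSMB, PSMC, PSMD, PSME, PSMF, or PSMG followed by a digit. They were found by looking up the symbol of each Ensembl identifier in GENCODE release 44, and pseudogenes and non-coding genes were left out. The rule gave 49 of the 27328 genes in the count table, and 48 of these had enough reads to be tested. The genes were measured in TF-1, a human AML cell line that grows in GM-CSF. Control cells (sgCtrl, 2 libraries) carried Cas9 and an sgRNA against the *Renilla luciferase* gene, and *MTSS1* knockout cells (3 libraries) carried Cas9 and sgMTSS1_1, sgMTSS1_2, or sgMTSS1_3. Cells of both groups were transduced with the same lentiviral Cas9-GFP vector, and each library came from a pool of 4 single-cell clones. A replicate is thus a pool, each knockout pool has its own sgRNA, and p-values measure the spread between these pools only.

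The proteasome is the large protease that degrades proteins tagged with ubiquitin. Its barrel-shaped 20S core is built from outer rings of alpha subunits (*PSMA* genes) and inner rings of beta subunits (*PSMB* genes), of which *PSMB5*, *PSMB6*, and *PSMB7* encode the proteolytic sites. A 19S cap of ATPases (*PSMC*) and non-ATPase subunits (*PSMD*) binds ubiquitinated proteins, unfolds them, and feeds them into the core. In blood cells and under interferon, *PSMB8*, *PSMB9*, and *PSMB10* replace the catalytic subunits *PSMB5*, *PSMB6*, and *PSMB7* and form the immunoproteasome, which favours peptides for presentation on MHC class I. *PSMG* genes and some *PSMD* genes encode chaperones that help assemble the core and the cap but are not part of the finished particle.

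Reads were counted from the 3′ ends of transcripts, so that levels in CPM (a gene's share of the library's counts times 1e6, with library sizes scaled by edgeR's TMM factors) follow numbers of mRNA molecules and need no division by length when genes are compared. Total counts were between 2849979 and 3408827 in the control and between 5442639 and 8854899 in the knockout libraries, so every knockout library was deeper than both control libraries. A level of 3 counts, used here as the floor, was between 0.389 and 0.938 CPM. The mRNA of *MTSS1* itself was at 204 and 87.9 CPM in the control pools and between 49.9 and 139 CPM in the knockout pools. These groups overlapped (log2-fold change −0.58, adjusted p = 0.494, edgeR), so this mRNA gave no check of the labels. The paper reports loss of the MTSS1 protein by immunoblot in the clones that were pooled, and protein was not measured here. All 10 markers of myeloid and erythroid progenitors looked up were present in every library, including *CD34* (112 to 345 CPM) and *KLF1* (138 to 255 CPM). *EPCAM* and *ALB*, markers of epithelial cells and hepatocytes, were at no more than 0.542 CPM. A gene was called when its Benjamini-Hochberg adjusted p-value from edgeR's quasi-likelihood test was under 0.05 and its log2-fold change was above 1 or below −1.

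Promoters are shown for called genes with an entry in RefSeq's promoter windows and for *PSMB9*, which lies beside *PSMB8* and encodes another immunoproteasome subunit. Each line gives the 250 bases before the transcription start that coincides with the start of GENCODE's canonical transcript, on GRCh38 and 5′ to 3′ on the gene's own strand. Capitals mark the letters of a searched motif. Windows were found for 43 of the 49 genes, and *PSMA7*, *PSMB1*, *PSMB6*, *PSMB7*, *PSMD4*, and *PSMG3* had none.
PSMB5 promoter, chr14:23034901-23035150, minus strand: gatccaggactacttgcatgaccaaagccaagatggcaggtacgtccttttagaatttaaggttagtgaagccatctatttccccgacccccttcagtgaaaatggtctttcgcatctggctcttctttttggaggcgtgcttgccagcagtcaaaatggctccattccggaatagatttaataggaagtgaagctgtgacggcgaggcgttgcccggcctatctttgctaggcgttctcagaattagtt
PSMB8 promoter, chr6:32844048-32844297, minus strand: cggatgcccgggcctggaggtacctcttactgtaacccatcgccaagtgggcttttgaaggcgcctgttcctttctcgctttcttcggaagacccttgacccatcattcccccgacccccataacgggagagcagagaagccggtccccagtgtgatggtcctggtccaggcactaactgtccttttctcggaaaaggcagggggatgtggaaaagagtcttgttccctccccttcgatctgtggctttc
PSMB9 promoter, chr6:32853942-32854191, plus strand: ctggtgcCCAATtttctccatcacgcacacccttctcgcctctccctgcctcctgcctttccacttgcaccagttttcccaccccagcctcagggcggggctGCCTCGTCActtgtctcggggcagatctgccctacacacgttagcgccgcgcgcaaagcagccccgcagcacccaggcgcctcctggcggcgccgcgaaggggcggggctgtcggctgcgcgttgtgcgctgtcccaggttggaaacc
PSMD13 promoter, chr11:236726-236975, plus strand: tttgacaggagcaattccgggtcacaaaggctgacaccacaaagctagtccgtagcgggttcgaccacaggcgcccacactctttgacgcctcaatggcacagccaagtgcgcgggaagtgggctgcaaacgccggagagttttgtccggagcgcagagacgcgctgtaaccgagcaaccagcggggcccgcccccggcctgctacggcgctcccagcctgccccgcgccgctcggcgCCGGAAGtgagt

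Motifs were searched on both strands of the whole windows, which run from 250 bases before to 50 bases after the start. A gene with several windows counted when any of them held the motif. The core of the antioxidant response element (TGACNNNGC), read by NRF1 and NRF2, was found in 15 of the 43 proteasome genes (34.9%) and in 16.1% of the 27305 genes with a window. CCGGAAG, an ETS motif, was found in 17 proteasome genes (39.5%, against 12.2% of all genes), CCAAT in 21 (48.8%, against 39.7%), and the core of the interferon-stimulated response element in 7 (16.3%, against 4.38%). No test was made of these shares. In the printed stretches, the *PSMB9* promoter holds the antioxidant core on the reverse strand and CCAAT, the *PSMD13* promoter holds the ETS motif close to the start, and those of *PSMB5* and *PSMB8* hold none of these letters. Outside the printed stretches, a second RefSeq window of *PSMB5* holds CCAAT, and the window of *PSMB8* holds the interferon core once the bases after the start are included. Of the 16 genes with a window whose knockout pools all lay above both control pools, 7 held the antioxidant core, 7 CCAAT, 5 the ETS motif, and 2 the interferon core. Of the 27 others, these were found in 8, 14, 12, and 5, and none of the 3 called genes with a window held the antioxidant core.

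*MTSS1* knockout and control pools differed in a few proteasome genes, and all of these were higher in the knockout. Called were *PSMB1* and *PSMB5* of the beta ring, *PSMB8* of the immunoproteasome, *PSMD13* of the 19S cap, and *PSMG3*, an assembly chaperone of the core. These are 5 of 48 genes tested (10.4%), beside 4.17% of all 14391 tested genes called higher. With all 5 libraries, no proteasome gene was called lower by edgeR's quasi-likelihood test or by DESeq2. By the former, 1.01% of all tested genes were called lower. At an unadjusted p-value under 0.05, 13 proteasome genes were higher and 1 was lower, beside 14.1% and 9.23% of all tested genes. The median log2-fold change was 0.38 over the 48 genes and −0.03 over all tested genes. DESeq2 called 9 proteasome genes, adding *PSMB4*, *PSMB7*, *PSMD3*, and *PSMG1*. These 9 are 18.8% of the 48, beside 9.43% of all tested genes called by DESeq2 in either direction. Without the sgMTSS1_1 pool, none of 47 proteasome genes was called, and only 0.831% of all tested genes were. The median log2-fold change was then 0.15 over the proteasome genes and −0.06 over all tested genes. The lack of lower calls did not hold in every fit with a library left out. Without control pool 1, the log2-fold changes of *PSMC1* and *PSMD8* were −1.42 and −1.16.

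In 20 of the 48 genes (41.7%), every knockout pool lay above both control pools, beside 22.2% of all tested genes. In 2 genes every knockout pool lay below both, beside 19.2% of all tested genes. The sgMTSS1_1 pool, the deepest library, had the highest level of all 5 pools for 28 of the 48 genes (58.3%), and for 25.0% of all tested genes. Control pools differed from each other by more than 2-fold for 15 of the 48 genes (31.2%, beside 30.7% of all tested genes).

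**Figure D1:**
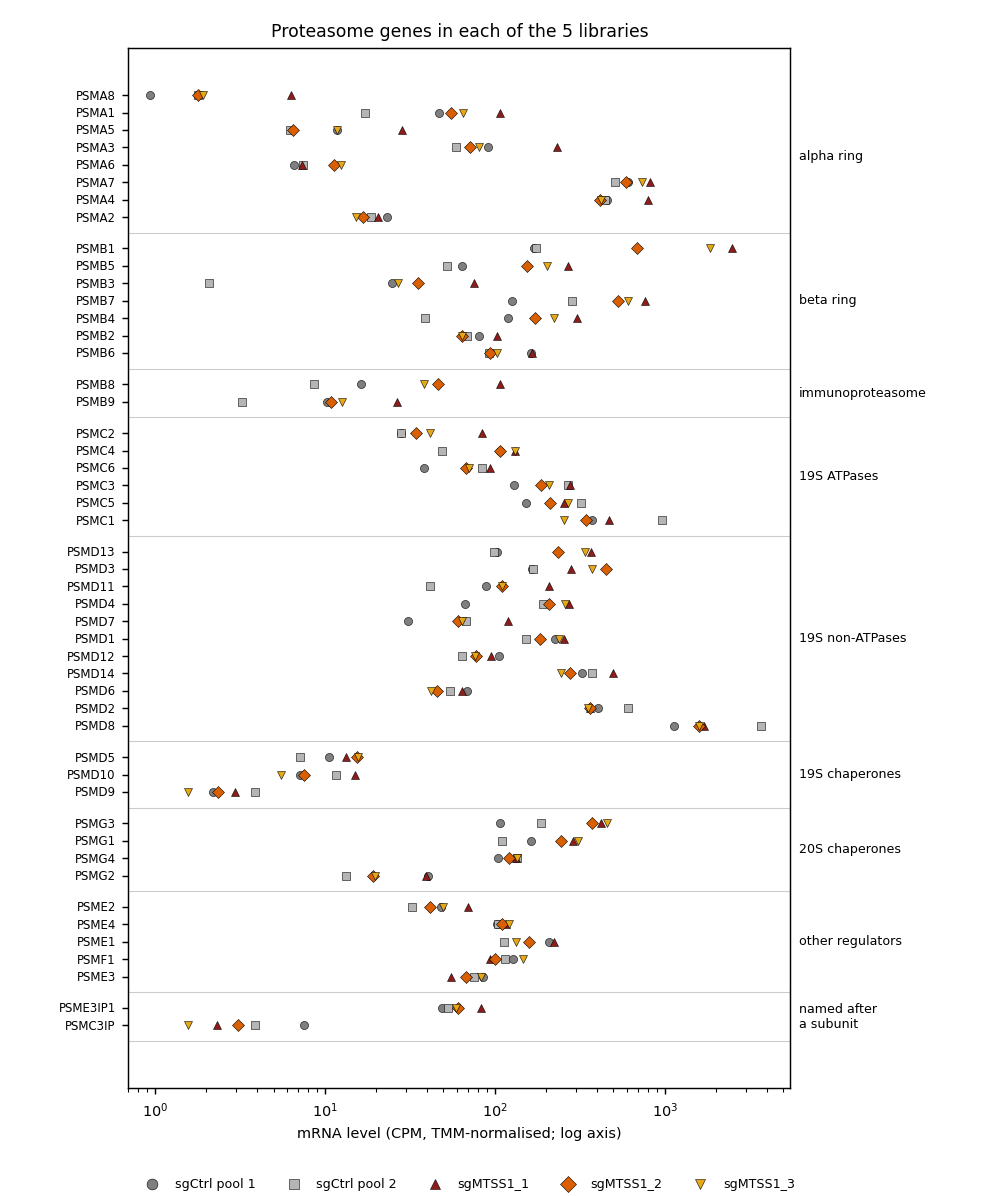
mRNA level in CPM on a log axis (horizontal) of the 48 tested proteasome genes (vertical, by group and falling log2-fold change), with 1 symbol for each library and no error bars. For *PSMB1*, *PSMB5*, *PSMB8*, *PSMD13*, and *PSMG3* the 3 knockout pools lie apart from both control pools, whereas for *PSMD8* and *PSMC1* control pool 2 lies above all other pools.

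The beta ring of the core held the largest single difference, that of *PSMB1*. *PSMB1* (ENSG00000008018, GRCh38 chromosome 6, 170535120 to 170553307, minus strand) encodes a beta subunit without a proteolytic site of its own. It was at 171 and 174 CPM in the control pools and in the knockout at 2495 CPM with sgMTSS1_1, 684 CPM with sgMTSS1_2, and 1856 CPM with sgMTSS1_3. Knockout values below follow this order. The control pools were nearly equal, and the knockout pools were far above them but 3.65-fold apart (173 ± 2.34 and 1679 ± 919 CPM, mean ± SD, n = 2 and 3). On the log2 scale the difference was 3.28 with a standard error of 0.57, or 9.72-fold (adjusted p = 0.0170, Benjamini-Hochberg over all genes tested by edgeR's quasi-likelihood method). Adjusted p-values marked edgeR come from this test. In the sgMTSS1_1 and sgMTSS1_3 pools *PSMB1* was the most abundant proteasome mRNA, while in both control pools *PSMA7*, *PSMA4*, and *PSMD8* were among those above it. The ratio of *PSMB1* to *PSMB2* reads, which does not depend on the scaling of libraries, was 2.12 and 2.52 with sgCtrl, and 24.2, 10.6, and 29.0 in the knockout.

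*PSMB5* (ENSG00000100804, chromosome 14, 23016543 to 23035230, minus strand) encodes the chymotrypsin-like site, the main target of the drug bortezomib. Its level was 64.4 and 52.4 CPM in the control pools and 269, 155, and 204 CPM in the knockout pools, with no overlap. The pools of either group were less than 2-fold apart, and the knockout exceeded the control by 1.84 on the log2 scale (standard error 0.35, adjusted p = 0.0218, edgeR).

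Of the other constitutive beta genes, *PSMB7*, which encodes the trypsin-like site, was at 126 and 285 CPM in the control and at 770, 534, and 608 CPM in the knockout pools. Its log2-fold change of 1.63 just missed the threshold (standard error 0.42, adjusted p = 0.0539, edgeR), and it passed with DESeq2. *PSMB4* was at 120 and 39.0 CPM in the control and at 304, 173, and 223 CPM in the knockout pools (log2-fold change 1.56, adjusted p = 0.0938, edgeR). *PSMB3*, at 25.0 and 2.09 CPM in the control and at 75.5, 35.2, and 27.1 CPM in the knockout pools, rests on 7 counts in control pool 2 (log2-fold change 1.77, adjusted p = 0.214, edgeR). These 3 genes were higher in every knockout pool, but their control pools were between 2.25-fold and 12.0-fold apart.

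*PSMB6*, which encodes the caspase-like site, and *PSMB2* stood apart from the rest of the ring. *PSMB6* (ENSG00000142507, chromosome 17, 4796144 to 4798502, plus strand) was at 164 and 92.4 CPM in the control pools and at 166, 94.1, and 103 CPM in the knockout pools, with a fitted difference of −0.08 on the log2 scale (standard error 0.37, adjusted p = 0.920, edgeR). *PSMB2* was at 80.7 and 69.1 CPM in the control and at 103, 64.3, and 64.0 CPM in the knockout pools (log2-fold change 0.04, standard error 0.32, adjusted p = 0.953, edgeR). For both genes the groups overlapped, and the sign of the *PSMB6* value turned with the filter on low counts, under the replicate block, and by the control pool left out, while the standard errors leave room for differences of moderate size. Within a library, *PSMB5* gave 0.392 and 0.568 reads for each *PSMB6* read with sgCtrl, and 1.62, 1.64, and 1.97 in the knockout. In the beta ring as a whole, 5 of 7 genes were higher in every knockout pool and 2 were called, with a median log2-fold change of 1.63 (range −0.08 to 3.28). Without control pool 2 the median was 0.99, and without control pool 1 it was 2.01.

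**Figure D2:**
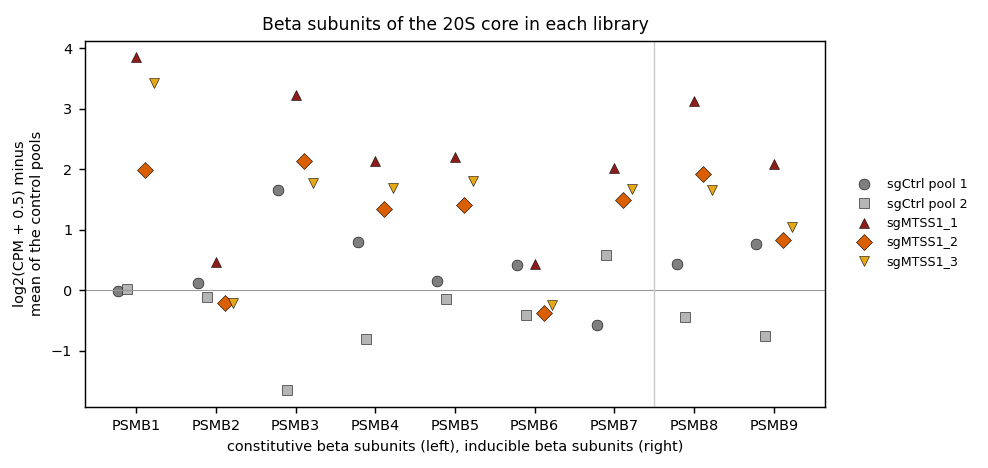
Beta subunit genes in each library, as log2(CPM + 0.5) minus the mean of the control pools (vertical), with 1 symbol for each library. Knockout pools lie above both control pools for all genes shown except *PSMB2* and *PSMB6*, and the sgMTSS1_1 pool is the highest for each gene.

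No gene of the alpha ring, which gates the entry to the core, was called by edgeR's quasi-likelihood test or by DESeq2, and 1 of 8 had an unadjusted p-value under 0.05. That gene was *PSMA1*, at 47.2 and 17.3 CPM in the control and at 108, 55.4, and 65.2 CPM in the knockout pools (log2-fold change 1.24, standard error 0.47, adjusted p = 0.154, edgeR). The highest log2-fold change, 1.31, was that of *PSMA8*, a subunit known from testis, which was at 0.938 and 1.79 CPM in the control and at 6.36, 1.81, and 1.91 CPM in the knockout pools. Only the sgMTSS1_1 pool stood clear of control pool 2, and the control levels rest on 3 and 6 counts. *PSMA7* and *PSMA4*, the most abundant of the ring, had values of 0.36 and 0.26 with overlapping pools. *PSMA2* had the lowest, −0.25, at 23.1 and 18.8 CPM in the control and at 20.5, 16.8, and 15.3 CPM in the knockout pools. The median of the ring was 0.67. The sgMTSS1_1 pool was the highest for 6 of the 8 genes, and the median was 0.01 without it, whereas that of the beta ring was 1.31.

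Summed over its genes, the alpha ring was at 1252 and 1073 CPM in the control pools and at 2023, 1172, and 1348 CPM in the knockout pools. For the constitutive beta ring, the sums were 751 and 714 CPM in the control pools and 4182, 1740, and 3085 CPM in the knockout pools. In these sums the beta ring was thus below the alpha ring in both control pools, and above it in all 3 knockout pools. This order rested on *PSMB1*, without which the beta ring was at 1687, 1056, and 1229 CPM in the knockout pools, below the alpha ring in each.

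Among the immunoproteasome genes, *PSMB8* (ENSG00000204264, chromosome 6, 32840717 to 32844679, minus strand), the inducible counterpart of *PSMB5*, was at 16.3 and 8.64 CPM in the control pools and at 108, 46.6, and 38.6 CPM in the knockout pools. All knockout pools were above both control pools, by 2.37 on the log2 scale (standard error 0.53, adjusted p = 0.0364, edgeR). *PSMB9* (ENSG00000240065, chromosome 6, 32844136 to 32859851, plus strand), the counterpart of *PSMB6*, was at 10.3 and 3.28 CPM in the control and at 26.6, 10.8, and 12.7 CPM in the knockout pools. Its knockout pools were also higher, but by little over control pool 1, and it was not called (log2-fold change 1.31, standard error 0.58, adjusted p = 0.209, edgeR). *PSMB8* and *PSMB9* share exonic sequence on opposite strands, as does *PSMB8-AS1* with *PSMB8*, so that their reads cannot be separated if strand was ignored in counting. *PSMB8-AS1* also overlaps *PSMB9* on the same strand, so that the count of *PSMB9*, and its share given below, is uncertain with either way of counting. *PSMB8-AS1* had 10 and 5 counts with sgCtrl, and 43, 30, and 21 counts in the knockout.

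*PSMB10* (chromosome 16, 67934506 to 67936864, minus strand), the counterpart of *PSMB7*, had 1 and 0 counts with sgCtrl, and 0, 3, and 0 counts in the knockout, at or under the floor throughout, and was the gene that could not be tested. An annotated gene that shares its exons on the same strand, ENSG00000261884, had between 1 and 11 counts in each library, and how reads common to both were counted is not given in the sources used here. *PSMB11*, the thymus subunit, was not analysed here.

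The inducible share of each catalytic pair was computed from the reads of both genes in the same library. *PSMB8* made up 20.2% (95% Wilson interval 15.7 to 25.5) and 14.1% (10.03 to 19.6) of *PSMB8* and *PSMB5* reads in the control pools. In the sgMTSS1_1, sgMTSS1_2, and sgMTSS1_3 pools it made up 28.7% (27.1 to 30.3), 23.1% (20.8 to 25.7), and 15.9% (14.1 to 18.0). The groups overlapped (two-sided exact permutation test, p = 0.4), both genes of the pair being higher in the knockout. *PSMB9* made up 5.91% (4.24 to 8.19) and 3.43% (1.92 to 6.03) of the reads of its pair with *PSMB6* in the control pools, and 13.8% (12.2 to 15.7), 10.3% (8.11 to 13.1), and 10.9% (8.80 to 13.5) in the knockout pools. These did not overlap (4.67% ± 1.76 and 11.7% ± 1.86, SD), and the two-sided exact permutation test gave p = 0.2, the smallest p-value that 2 against 3 pools allow. *PSMB10* made up no more than 0.247% of its pair with *PSMB7* in any library, and a count of 0, taken as up to 3 counts, allowed up to 0.314% in control pool 2 and up to 0.0506% in the sgMTSS1_1 pool (upper Wilson bounds 0.401% and 0.0647%). Intervals and limits cover counting error alone, and PCR copies of a molecule were not told apart.

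**Figure D3:**
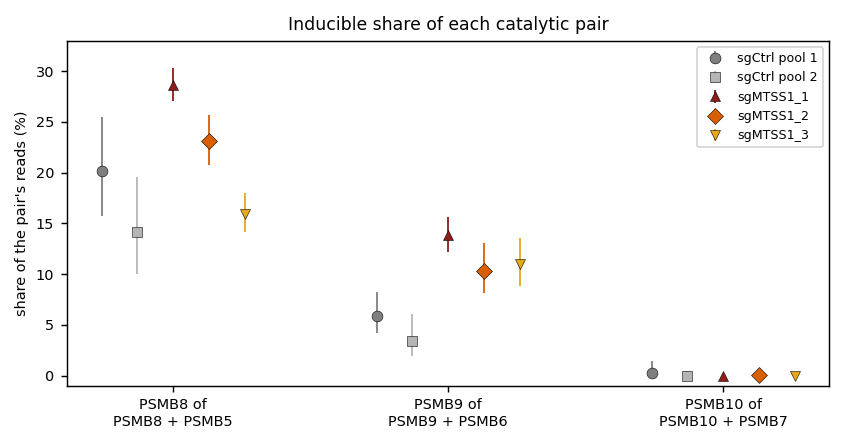
Share of the inducible subunit in the summed reads of each catalytic pair (vertical, percent), with 1 symbol for each library and 95% Wilson intervals. Shares of *PSMB9* are between 10.3% and 13.8% in the knockout pools and under 6% in the control pools, shares of *PSMB8* overlap between groups, and those of *PSMB10* are close to 0.

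In the 19S cap, none of the 6 ATPase genes was called by edgeR's quasi-likelihood test or by DESeq2, and none had an unadjusted p-value under 0.05 in the former. Their median log2-fold change was 0.26. *PSMC2* had the highest, at 28.1 and 28.0 CPM in the control and at 84.4, 34.5, and 41.8 CPM in the knockout pools (0.93, standard error 0.42, adjusted p = 0.216, edgeR). *PSMC2* shares exonic sequence on the same strand with *PMPCB*, which had between 111 and 606 counts, so that the count of *PSMC2* is uncertain. *PSMC1* had the lowest, at 372 and 964 CPM in the control and at 469, 345, and 255 CPM in the knockout pools (−0.91, standard error 0.44, adjusted p = 0.252, edgeR). The value of *PSMC1* rests on control pool 2, and 13 pseudogenes are named after it, so that its count is uncertain. The ATPase genes *PSMC3*, *PSMC4*, *PSMC5*, and *PSMC6* lay between 0.06 and 0.67, with control pools more than 2-fold apart in each.

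Of the 11 non-ATPase genes of the cap, *PSMD13* (ENSG00000185627, chromosome 11, 236966 to 252984, plus strand), a subunit of the lid, was the only one called. It was at 103 and 99.5 CPM in the control pools and at 367, 236, and 339 CPM in the knockout pools. Neither group varied by more than 1.56-fold, and knockout exceeded control by 1.64 on the log2 scale (standard error 0.33, adjusted p = 0.0256, edgeR). *PSMD3*, another scaffold of the lid, was at 166 and 169 CPM in the control and at 282, 452, and 375 CPM in the knockout pools (1.14, standard error 0.33, adjusted p = 0.0766, edgeR) and was called by DESeq2.

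*PSMD11*, also of the lid, and *PSMD4*, a ubiquitin receptor, were higher in every knockout pool without passing the test, with log2-fold changes of 1.13 and 0.93 and adjusted p-values of 0.157 and 0.235 from edgeR. *PSMD14*, which encodes the deubiquitinase of the lid, was at 328 and 373 CPM in the control and at 495, 279, and 246 CPM in the knockout pools (−0.04), and the groups overlapped. The large base subunits *PSMD1* and *PSMD2* had values of 0.25 and −0.50. For *PSMD2*, every knockout pool lay below both control pools (406 and 613 CPM in the control, and 364, 366, and 352 CPM in the knockout pools, adjusted p = 0.377, edgeR). *PSMD8* had the lowest value, −0.56, and was the most abundant proteasome mRNA in both control pools, at 1139 and 3677 CPM, and at 1713, 1599, and 1584 CPM in the knockout pools. The knockout pools lay between the control pools, and the log2-fold change was 0.55 without control pool 2. Over the 11 genes the median was 0.25, with 6 values above 0 and 5 below.

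Among the chaperones of core assembly, *PSMG3* (ENSG00000157778, chromosome 7, 1567332 to 1571005, minus strand) was at 107 and 188 CPM in the control and at 425, 376, and 456 CPM in the knockout pools. It forms a dimer with *PSMG4* that acts on the alpha ring. The difference was 1.50 on the log2 scale (standard error 0.35, adjusted p = 0.0422, edgeR), and the call was the least stable of the 5, being kept in only 1 of the 5 fits that left out a library. It has 2 pseudogenes, which may take some of its reads, and *PSMG3-AS1* on the opposite strand had between 6 and 18 counts. *PSMG4* was at 104 and 136 CPM in the control and at 134, 121, and 135 CPM in the knockout pools (0.11, standard error 0.28, adjusted p = 0.854, edgeR). The ratio of *PSMG3* to *PSMG4* reads was 1.03 and 1.38 with sgCtrl, and 3.17, 3.10, and 3.37 in the knockout. *PSMG4* shares exonic sequence on the opposite strand with *TUBB2B*, which had 235 and 213 counts with sgCtrl, and 3585, 1664, and 2909 in the knockout. The count of *PSMG4* and this ratio are thus uncertain if strand was ignored in counting.

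In the other dimer of chaperones, *PSMG1* was at 163 and 111 CPM in the control and at 289, 247, and 309 CPM in the knockout pools (1.04, standard error 0.32, adjusted p = 0.0902, edgeR). It was called by DESeq2. Its partner *PSMG2* was at 40.6 and 13.4 CPM in the control and at 39.7, 19.3, and 19.7 CPM in the knockout pools (−0.04). In each dimer, then, 1 gene was higher in all knockout pools and the other overlapped. None of the 4 genes was highest in the sgMTSS1_1 pool, and the median of 0.57 was 0.54 without that pool and 1.08 without control pool 1.

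The chaperones of cap assembly were rare mRNAs. *PSMD5* was at 10.6 and 7.15 CPM in the control and at 13.4, 15.5, and 15.7 CPM in the knockout pools (0.74, standard error 0.36, adjusted p = 0.260, edgeR). *PSMD10*, which encodes gankyrin, had a value of 0.02 with overlapping pools. *PSMD9* was between 1.57 and 3.87 CPM in all libraries (−0.39), at 7 to 23 counts. None of the 3 was called by edgeR's quasi-likelihood test or by DESeq2, or had an unadjusted p-value under 0.05 in the former.

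The alternative caps and the inhibitor differed least. *PSME1* and *PSME2* encode the PA28 activator, which is induced by interferon together with the immunoproteasome. *PSME1* was at 209 and 113 CPM in the control and at 223, 159, and 133 CPM in the knockout pools (0.09, standard error 0.37, adjusted p = 0.907, edgeR). Its sign turned with library size alone and when GC content and transcript length entered as offsets. *PSME2* was at 48.5 and 32.5 CPM in the control and at 69.7, 41.9, and 49.8 CPM in the knockout pools (0.41, standard error 0.34, adjusted p = 0.512, edgeR). *PSME3*, the nuclear activator, had a value of −0.22, at 86.0 and 75.4 CPM in the control and at 55.6, 68.2, and 83.7 CPM in the knockout pools. *PSME4*, which encodes a large nuclear activator, and *PSMF1*, an inhibitor of the core, had values of 0.16 and −0.09. All 5 values lay between −0.22 and 0.41, and no gene was called by edgeR's quasi-likelihood test or by DESeq2, or had an unadjusted p-value under 0.05 in the former.

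Finally, 2 genes fit the naming rule without encoding a proteasome subunit. *PSMC3IP*, a factor of meiotic recombination, was at 7.50 and 3.87 CPM in the control and at 2.34, 3.07, and 1.57 CPM in the knockout pools, the lowest log2-fold change of all 48 genes (−1.28, standard error 0.53, adjusted p = 0.186, edgeR), from 9 to 24 counts. *PSME3IP1*, a partner of *PSME3*, was at 49.1 and 53.3 CPM in the control and at 82.8, 61.0, and 59.5 CPM in the knockout pools (0.40, adjusted p = 0.456, edgeR).

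**Figure D4:**
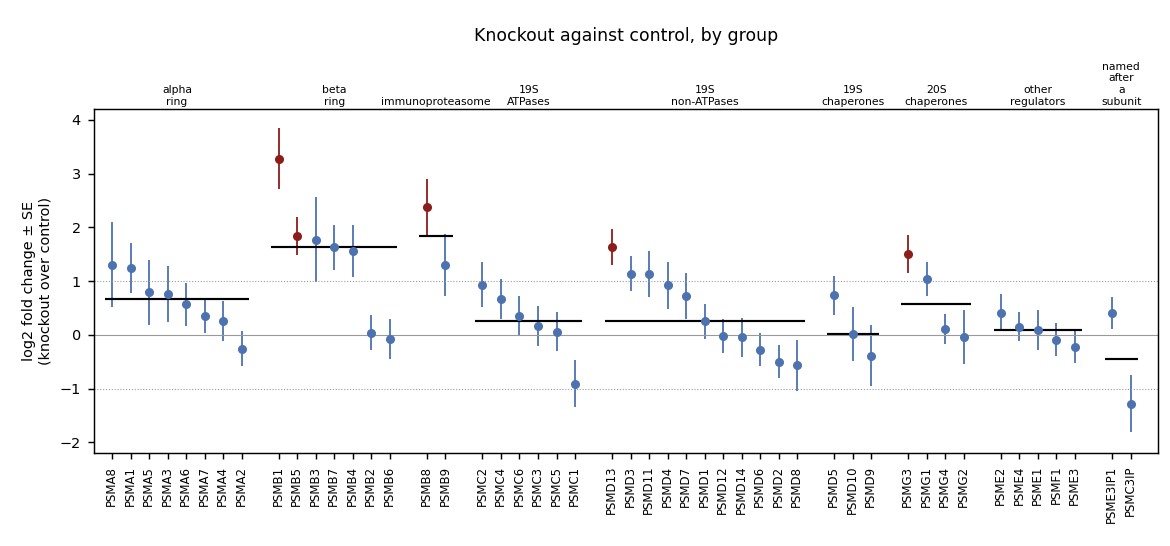
log2-fold change of knockout over control ± standard error (vertical) of the 48 tested proteasome genes, by group, with black bars at the group medians and dotted lines at −1 and 1. Red symbols are the 5 called genes, and the medians are 1.63 for the beta ring, 0.67 for the alpha ring, and 0.26 and 0.25 for the ATPases and non-ATPases of the cap.

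Set side by side, the constitutive core (15 genes) had a median log2-fold change of 0.79 and 7 genes higher in every knockout pool, and the cap (17 genes) a median of 0.25 and 6 such genes. For the 7 assembly chaperones these were 0.11 and 3, and 22.2% of all tested genes were higher in every knockout pool. Of the 7 core genes higher in every knockout pool, 5 belong to the beta ring. With library size alone in place of TMM, the median of all tested genes was −0.17. The medians of the alpha ring, the beta ring, and both parts of the cap stayed above 0 under each normalization tried, when GC content and transcript length entered as offsets, and under the replicate block. The contrast between core and cap depended on the control pools. Without control pool 2 the medians were 0.99 for the beta ring, 0.47 for the alpha ring, 0.77 for the ATPases, and 0.55 for the non-ATPases, and without control pool 1 that of the ATPases was −0.17. With the same offsets, the median was 1.28 for the beta ring and 0.05 for the ATPases.

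Further genes of the ubiquitin-proteasome system outside the naming rule comprised 32 genes, of which 31 were tested. In this list 3 genes (*POMP*, *TAP2*, *RPS27A*) were called higher, beside 4.17% of all tested genes, and none was called lower by edgeR's quasi-likelihood test. DESeq2 called 6 (19.4%, beside 9.43% of all tested genes), of which 1 was lower. By edgeR, 1 was also called lower with library size alone, with the replicate block, with GC and length offsets, and with both of the latter. Without control pool 1, 2 were called lower. Other genes of the list given below were picked for their role after their values were seen. *POMP* encodes the chaperone that carries beta subunits onto the alpha ring and is degraded as the first substrate of the finished core. It was at 158 and 177 CPM in the control and at 525, 327, and 473 CPM in the knockout pools (log2-fold change 1.40, standard error 0.34, adjusted p = 0.0454, edgeR). This call was lost in 6 of 9 alternative fits with all libraries and in each fit that left out a library. *ADRM1*, a ubiquitin receptor of the cap, was higher in every knockout pool but missed the threshold (1.22, adjusted p = 0.0517, edgeR). Of the 8 genes listed for proteasome components and assembly, 3 were higher in every knockout pool, beside 22.2% of all tested genes (group median 0.22). *UCHL5*, *USP14*, and *TXNL1* of this group had values of −0.50, −0.37, and −0.50 with overlapping pools. Over the 31 tested genes of the whole list the median was −0.27, beside −0.03 over all tested genes.

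On the interferon side, *TAP2*, a transporter of peptides for MHC class I that lies in the same region of chromosome 6 as *PSMB8*, was at 7.19 and 2.09 CPM in the control and at 31.9, 21.8, and 18.3 CPM in the knockout pools (2.38, standard error 0.53, adjusted p = 0.0364, edgeR). The call was kept in only 1 of the 5 fits that left out a library, being lost without each knockout pool and without control pool 2. *TAP1*, its partner, was at or near the floor in every library and was not tested. *IRF1* and *B2M* were higher in every knockout pool (1.01 and 0.85, adjusted p-values 0.150 and 0.212 from edgeR), and *NLRC5*, which drives MHC class I genes, had a value of 0.28 with overlapping pools.

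Of the genes that supply ubiquitin, *RPS27A*, which encodes ubiquitin fused to a ribosomal protein, was at 292 and 431 CPM in the control and at 4084, 2115, and 3023 CPM in the knockout pools (3.09, standard error 0.46, adjusted p = 0.0111, edgeR). *UBB*, which encodes a chain of ubiquitin repeats, was lower in every knockout pool without passing the test (−1.34, adjusted p = 0.0638, edgeR). *NFE2L1*, the transcription factor that induces proteasome genes when proteasome activity drops, was at 41.0 and 40.2 CPM in the control and at 25.6, 34.5, and 31.0 CPM in the knockout pools (−0.42, standard error 0.29, adjusted p = 0.426, edgeR). *AKIRIN2*, which takes proteasomes into the nucleus, was at 37.5 and 35.8 CPM in the control and at 9.47, 19.5, and 20.7 CPM in the knockout pools (−1.15, standard error 0.38, adjusted p = 0.108, edgeR). Of the 5 genes of transcription and import, 4 were lower in every knockout pool, as were 19.2% of all tested genes, and none was called by edgeR's quasi-likelihood test.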

How the data were processed

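RNA was taken from 2 control and 3 *MTSS1* knockout pools of TF-1 clones and sequenced as QuantSeq 3′ libraries. Per the paper's methods and the labels, the authors trimmed adapters with BBDuk, checked reads with FastQC 0.11.9, aligned them to GRCh38 with HISAT2 2.1.0, and kept uniquely mapped reads with SAMtools 1.10. The deposited values are raw counts for each Ensembl gene. The counting program, its annotation, and its use of strand are not given in the sources used here. A pool from each group that the study removed as an outlier was not analysed here.

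Genes were kept with filterByExpr (minimum count 10), scaled with TMM, and compared between the groups, formed from the sample labels, with edgeR's quasi-likelihood test on condition alone, adjusted by Benjamini-Hochberg over 14391 genes. The fit was tested on simulated data, in which 200 of 14391 genes were changed 4-fold in the knockout libraries. It called 57.5% of these and 5 unchanged genes, so a gene that was not called may still differ. Total counts ranged from 2849979 to 8854899, and 3 counts were taken as the floor. Proteasome genes, their groups by known role, the further list, and the motifs were chosen with earlier results of these data known. The naming rule covered called genes, the catalytic and PA28 pairs, and the highest and lowest log2-fold change of each group. Other named genes were picked after their values were seen. Alternatives were DESeq2, other size factors and filters, libraries thinned to equal totals, a replicate block, offsets for GC content and transcript length, a looser threshold, and leaving out each library. Promoter windows are RefSeq's, on GRCh38.p14. Some genes of the marker and further lists are not reported here.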

Additional observations from a re-analysis of the deposited data

Results flagged for a closer look

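Among 35 genes of other types that fit the naming pattern, mostly pseudogenes, 16 had enough reads to be tested, and 1 was called. *PSME2P2*, a processed pseudogene of *PSME2* outside the protein-coding genes described above, was higher in the knockout by 2.73 on the log2 scale (standard error 0.55, adjusted p = 0.0256, edgeR's quasi-likelihood test), at a mean of 1.38 CPM in the control and 9.23 CPM in the knockout pools. It drew notice as a signal outside the genes compared. *PSME2* itself had a value of 0.41 and was not called. Reads of a processed pseudogene and its parent can be alike, and whether these came from the parent was not tested.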

How the results depend on the processing

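The number of proteasome genes called was 5, and it was 9 with DESeq2, 8 without a filter on low counts, 10 with the replicate block, 2 with the block and GC and length offsets together, and 9 at an adjusted p-value under 0.1. Leaving out a library gave between 0 (without the sgMTSS1_1 pool) and 12 (without control pool 1), with 3 without the sgMTSS1_2 pool and 1 without the sgMTSS1_3 pool. For all genes the number was 745, against 1357, 1374, and 1531 with DESeq2, no filter, and the looser threshold, 494 with the block and offsets, and between 111 and 1349 with a library left out. For the further list it was 6 with DESeq2, 5 without a filter, and between 1 and 5 with a library left out. The share of all calls that were higher was 80.5%, and 62.3% with GC and length offsets. *PSMB1* and *PSMB8* kept their call in all 9 alternatives with every library, and *PSMB5*, *PSMD13*, and *PSMG3* lost it only with the block and offsets. The block goes by pool number, and the sgMTSS1_3 pool has no control pool of its number. In fits with the block, this pool thus adds nothing to the difference between the groups. With a library left out, *PSMB1*, *PSMB5*, and *PSMD13* lost it without sgMTSS1_1 or sgMTSS1_3, and *PSMB8* without sgMTSS1_1, sgMTSS1_2, or control pool 2.

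The median over the proteasome genes was between 0.22 and 0.50 in the alternatives with every library and between 0.15 and 0.51 with one left out. Uncalled genes changed sign as follows. *PSMB6* was at 0.065 without a filter, 0.0041 with 10 counts required in every library, and 0.021 with the block. *PSME1* was at −0.089 with library size alone, −0.28 with GC and length offsets, and −0.078 with the block and offsets. *PSMG2* was at 0.11 without a filter, 0.058 with 10 counts required, 0.23 with the block, and 0.21 with the block and offsets. With a library left out, the ranges were −0.41 to 0.40 for *PSMB6*, −1.16 to 0.55 for *PSMD8*, −0.72 to 0.11 for *PSMD9*, −0.25 to 0.62 for *PSME1*, and −0.60 to 0.98 for *PSMG2*. The causes were not tested. The numbers 1 and 2 occur in both groups, but no source says that they mark shared handling, and the difference between control pools 1 and 2 correlated with that between knockout pools 1 and 2 at 0.17 across genes, and with that between pools 1 and 3 at 0.19. The difference between control pools 1 and 2 correlated at 0.0085 with that between knockout pools 2 and 3. These correlations do not settle whether pools of the same number were handled together. Precision was limited by the 2 control pools, with 2849979 and 3408827 counts, and by few reads for *PSMA8*, *PSMB3*, *PSMB9*, *PSMB10*, and *PSMD9*.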
